A study of Mus musculus with 9 samples.

Results

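Zdhhc17 and Csrp2 are neighbouring genes of mouse chromosome 10 whose 3′ ends face each other. They were followed here through sciatic nerves of PINCH1 mutants, PINCH2 mutants and controls, together with Csrp1 and Csrp3, the closest relatives of Csrp2. These are 4 of the 25965 gene entries of the count table. Zdhhc17 was chosen by its measured counts, which separated the PINCH1 mutants from the other groups in these same libraries. Its values are therefore a description, with no test. Csrp2 was taken for its position beside Zdhhc17, and Csrp1 and Csrp3 for their relation to Csrp2. Of the 4 genes, Zdhhc17 and Csrp1 (2 genes) passed the filter on low counts.

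All mice were C57BL/6. The groups were PINCH1 mutants, PINCH2 mutants and control littermates, with 3 libraries each. A library was made from total RNA of a pool of 4 sciatic nerves, taken from 1 male and 1 female after the outer sheath was stripped. The stage was given as postnatal day 15 in a label and as day 14 in the protocol. The method behind the mutants and the cells that carried the change were not given in the sources used here. Library totals ran from 957828 to 1204964 counts, so that a count of 0 allows up to 3 counts, or 2.49 to 3.13 CPM (a count divided by the library total, on a common scale), a limit that covers counting error only. The gene behind PINCH1, Lims1, had 0, 1 and 3 counts in PINCH1 mutants, 0, 1 and 9 in PINCH2 mutants and 3, 7 and 7 in controls, too few to check the labels.

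ZDHHC17 is an enzyme of Golgi and transport vesicle membranes that attaches palmitate to cysteines of other proteins. It recruits its substrates through ankyrin repeats, and in neurons it is known as a huntingtin-interacting protein that acts on synaptic vesicle and SNARE proteins. CSRP1, CSRP2 and CSRP3 are small cysteine-rich proteins made of a pair of LIM domains, zinc-binding folds that hold proteins together at actin filaments and in the nucleus. CSRP1 and CSRP2 are best known in smooth muscle, and CSRP3, or muscle LIM protein, in heart and skeletal muscle. The PINCH proteins are also LIM-domain adaptors, which join integrin-linked kinase and parvin at integrin adhesions.

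Zdhhc17 (ENSMUSG00000035798) spans 68.3 kb of the minus strand, at chr10:110941782-111010066 of GRCm38. Csrp2 (ENSMUSG00000020186) spans 19.4 kb of the plus strand, at chr10:110920177-110939599. Both are transcribed towards the same 2182 bases that separate their ends. In the GENCODE M21 annotation of this build, neither gene has an exon that overlaps an exon of the opposite strand, and 0 genes of the opposite strand lie within either span. The coding stretch that carries the catalytic motif of Zdhhc17 is printed beside its counterpart in Zdhhc13, the closest relative of Zdhhc17 in mammals. The capitals mark the codons of the Asp-His-His-Cys motif that names the family, and the codons in its place in Zdhhc13. The stretches cover codons 456 to 475 of Zdhhc17-201 (exons 13 and 14, chr10:110947381-110948248, minus strand, with the intron between) and codons 445 to 464 of Zdhhc13-201 (exons 13 and 14, chr7:48817182-48818638, plus strand, with the intron between).
Zdhhc17: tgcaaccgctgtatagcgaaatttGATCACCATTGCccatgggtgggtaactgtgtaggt
Zdhhc13: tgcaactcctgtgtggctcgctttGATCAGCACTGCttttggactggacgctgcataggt
Of these 60 bases, 39 were the same in both genes. Over 1857 aligned coding bases 59.5% were the same, and the longest run shared by the transcripts was 14 bases. The Asp-His-His-Cys codons occurred 1 time in frame in Zdhhc17 and 0 times in Zdhhc13.

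Libraries differed at entries that touch skeletal muscle genes. A set of 5 entries that lie over skeletal muscle marker genes on the opposite strand, Ube2c over Tnnc2 and A930016O22Rik over Ckm among them, summed to 0.947, 541 and 6.64 CPM in PINCH1 mutant replicates 1, 2 and 3. They summed to 13.4, 154 and 8.57 CPM in PINCH2 mutants and 14.4, 11.6 and 57.2 CPM in controls. PINCH1 mutant replicate 2 stood far above the rest. The 12 muscle markers themselves summed to 14.6 to 18.0 CPM in PINCH1 mutants, 13.4 to 34.3 CPM in PINCH2 mutants and 10.5 to 17.3 CPM in controls, with Acta1, Myh2, Myh3, Myh8 and Tnnc2 at 0 in all 9 libraries.

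Zdhhc17 was at a high level in every PINCH1 mutant library. It had 495, 321 and 451 counts in PINCH1 mutants, 69, 97 and 71 in PINCH2 mutants and 73, 74 and 93 in controls. The lowest PINCH1 mutant library held more counts than any library of the other groups, while PINCH2 mutants and controls covered the same range. After scaling for depth with TMM, a method that sets libraries to a common level by the bulk of their genes, the means were 397 ± 47.2 CPM in PINCH1 mutants, 75.2 ± 5.24 CPM in PINCH2 mutants and 76.2 ± 6.82 CPM in controls (SD, n = 3 each). PINCH1 mutants stood at 5.22 times the control level and 5.29 times the PINCH2 mutant level. PINCH2 mutants stood at 0.987 of the control level. The lowest PINCH1 mutant library, at 364 CPM, was 4.37 times the highest control, at 83.3 CPM, and 4.49 times the highest PINCH2 mutant library, at 81.2 CPM.

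**Figure D1:**
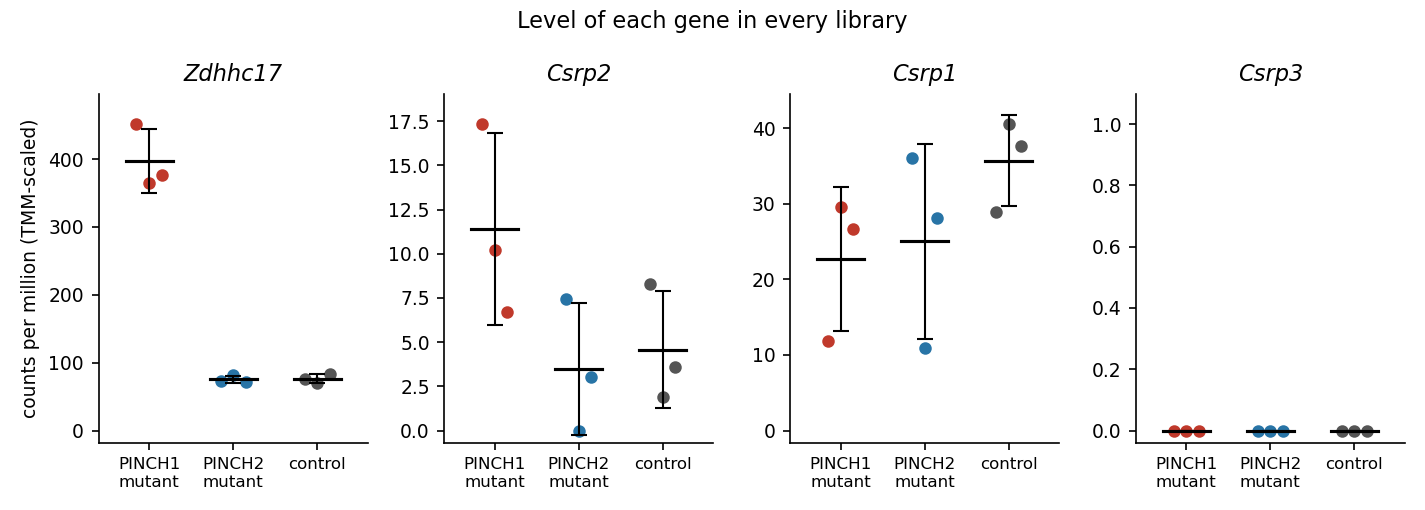
TMM-scaled CPM of Zdhhc17, Csrp2, Csrp1 and Csrp3 in each library (points), with the mean (wide bar) and SD (error bar) of 3 libraries per group and a separate vertical scale for each gene. The Zdhhc17 points of PINCH1 mutants lie from 364 to 451 CPM, all other Zdhhc17 points from 69.7 to 83.3 CPM, the groups overlap for Csrp2 and Csrp1, and Csrp3 is at 0 throughout.

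In edgeR's model of all 9 libraries, Zdhhc17 had a log2 fold change of 2.38 (SE 0.19) between PINCH1 mutants and controls and of 2.40 (SE 0.19) between PINCH1 and PINCH2 mutants. Between PINCH2 mutants and controls it was -0.02 (SE 0.19), with a 95% interval of -0.39 to 0.36 on the log2 scale. These comparisons share libraries and are given side by side. Within groups Zdhhc17 varied little: the SD was 11.9% of the mean in PINCH1 mutants, 6.97% in PINCH2 mutants and 8.95% in controls. Counting error alone gives 4.87% in PINCH1 mutants, 11.3% in PINCH2 mutants and 11.2% in controls. PINCH1 mutant replicate 2, the library with the highest sum at the opposite-strand entries over muscle genes, held the lowest Zdhhc17 level of its group. Without that library the log2 fold change of Zdhhc17 was 2.44 against controls and 2.47 against PINCH2 mutants. Any part of the difference at those entries in the Zdhhc17 values was not tested.

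Of Csrp1 and Csrp2, 0 were past an adjusted p of 0.05 between PINCH1 mutants and controls, where 0.0633% of the 4738 tested entries were. The count was also 0 between PINCH1 and PINCH2 mutants, against 0.0844% of the tested entries, and 0 between PINCH2 mutants and controls, against 0.0211%. Csrp2 is not among the 4738 and was read from a fit of all 15595 entries with a count. There 15 entries passed between PINCH1 mutants and controls, 20 between PINCH1 and PINCH2 mutants and 1 between PINCH2 mutants and controls. DESeq2 and limma-voom put 0 of Csrp1 and Csrp2 past the threshold in any comparison, and an unadjusted edgeR p under 0.05 was found only for Csrp2 between PINCH1 and PINCH2 mutants. The PINCH1 mutant libraries all lay above the controls for 6.16% of the tested entries and all above the PINCH2 mutants for 5.42%. Zdhhc17 was chosen on these contrasts and counts among these percentages by that choice, so nothing is read from its own place in them.

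**Figure D2:**
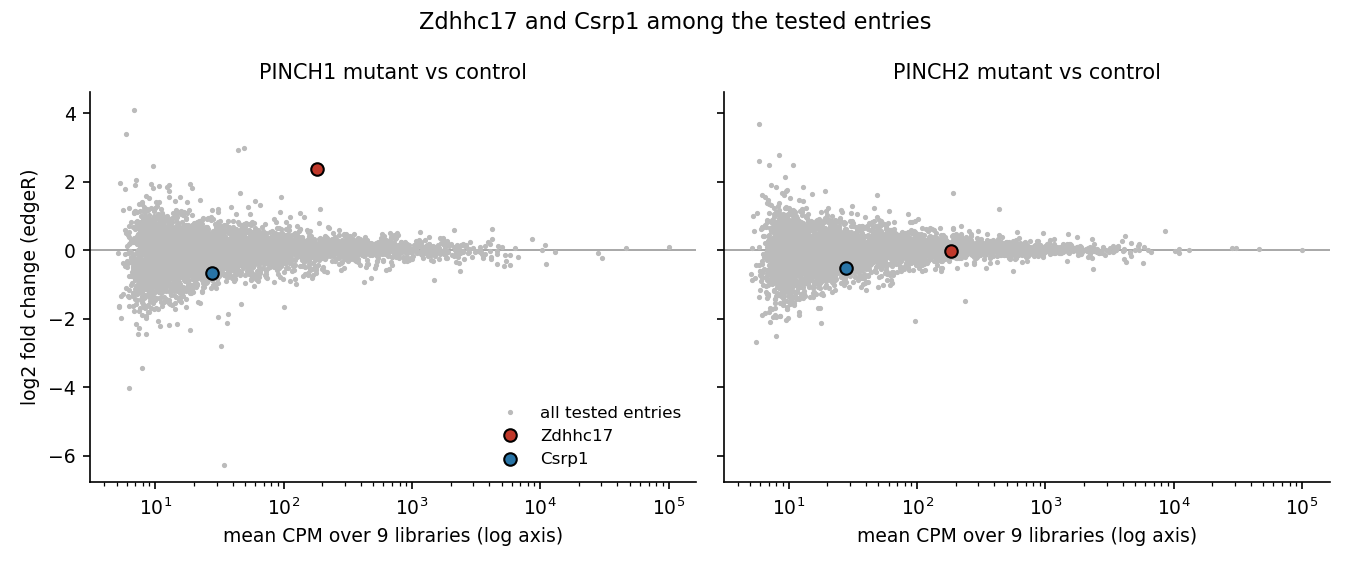
The log2 fold change of every tested entry (grey points) against its mean CPM over 9 libraries on a log axis, for PINCH1 mutants against controls (left) and PINCH2 mutants against controls (right). Zdhhc17 lies at 2.38 on the left, which is the difference it was chosen for, and at -0.02 on the right, while Csrp1 lies at -0.66 and -0.53 within the cloud.

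The labelled tissue was checked against myelin genes. All 8 markers of myelinating Schwann cells were tested, and their sum was 10394 to 13156 CPM in PINCH1 mutants, 10731 to 12642 CPM in PINCH2 mutants and 13473 to 17081 CPM in controls, so that both mutants lay below the controls. With edgeR, DESeq2 or limma-voom 0 of the 8 passed in any comparison, and 4 had an unadjusted edgeR p under 0.05 between PINCH1 mutants and controls. Their median log2 fold change was -0.49 in PINCH1 mutants, where that of all tested entries was -0.02, and -0.24 in PINCH2 mutants, where that of all entries was 0.00. All these markers but Prx lack an exon overlap with the opposite strand, and the tested entries without such an overlap had medians of -0.17 in PINCH1 mutants and -0.12 in PINCH2 mutants. In RNA from whole nerve, fewer cells of a type and less RNA per cell cannot be told apart. The part of the myelin differences, and of those at the entries over muscle genes, in the Zdhhc17 values was not tested.

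The counting rule bears on what a Zdhhc17 count is. The strand setting was not given in the sources used here, and 88.4% of all counts fell on the 24.7% of entries whose exons overlap exons of the opposite strand. Zdhhc17 is not among them. Of the 1946 tested entries without such an overlap, it ranked 184th by mean CPM in controls and 34th in PINCH1 mutants. Gm15541, over the marker Prx, had 3151 to 14107 CPM of the library totals, where Prx had group means of 421 to 608 CPM. Hmgxb3, over the macrophage gene Csf1r, went the other way, with 2.49 to 14.3 CPM against Csf1r group means of 560 to 608 CPM. Counts made on the strand opposite to the reads would place plus-strand reads, the strand of Csrp2, under Zdhhc17. Which strand was counted was not tested. Reads from Zdhhc17 and reads from unannotated transcription through its span on the other strand cannot be told apart in these counts, so the entry is described by its counts and not as Zdhhc17 protein or mRNA.

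Csrp2 points at Zdhhc17 from the other side of the gap. The last annotated bases of both transcripts are printed, because they face each other across the gap. In GENCODE M21 both transcripts run slightly past the ends in the count table, and 2157 bases lie between them. The capitals mark the polyadenylation signal (AATAAA or ATTAAA, searched on the transcript strand in the last 50 bases). The Csrp2-201 stretch lies at chr10:110939593-110939622 (plus strand, exon 6) and the Zdhhc17-201 stretch at chr10:110941780-110941809 (minus strand, exon 17).
Csrp2: cctgATTAAAaaaaaaaaaaagacgttctt
Zdhhc17: atattaatcaaAATAAAtattgactcttaa
The signal ended 20 bases before the annotated end in Csrp2-201 and 13 bases before it in Zdhhc17-201.

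Csrp2 itself was scarcely counted. It had 19, 9 and 8 counts in PINCH1 mutants, 7, 0 and 3 in PINCH2 mutants and 8, 2 and 4 in controls. The PINCH1 mutant libraries were the higher ones, but after scaling the lowest of them, at 6.68 CPM, lay below the highest PINCH2 mutant library, at 7.41 CPM, and the highest control, at 8.27 CPM, so the groups overlapped. The means were 11.4 ± 5.43 CPM in PINCH1 mutants, 3.48 ± 3.73 CPM in PINCH2 mutants and 4.58 ± 3.31 CPM in controls (SD, n = 3 each). Csrp2 did not pass the filter on low counts, and its test comes from a fit of all 15595 entries with a count. There its log2 fold change was 1.31 (SE 0.84, edgeR adjusted p = 0.806) between PINCH1 mutants and controls. For PINCH2 mutants against controls it was -0.42 (SE 0.93, edgeR adjusted p = 1). Between PINCH1 and PINCH2 mutants it was 1.73 (SE 0.87, edgeR adjusted p = 0.825).

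Exact permutation tests of the Csrp2 levels gave two-sided p-values of 0.2 for PINCH1 mutants and controls, 0.7 for PINCH2 mutants and controls and 0.2 for PINCH1 and PINCH2 mutants. With 3 libraries against 3 the smallest p is 0.1. The 95% intervals of the Csrp2 log2 fold change ran from -0.34 to 2.95 between PINCH1 mutants and controls and from 0.02 to 3.44 between PINCH1 and PINCH2 mutants. Single libraries moved these values: the first was 2.04 without control replicate 1 and 0.86 without PINCH1 mutant replicate 1, and the second was 2.91 without PINCH2 mutant replicate 1 and 1.11 without PINCH2 mutant replicate 2.

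The 2 neighbours can also be set against each other within a library, where depth plays no part. Csrp2 made up 3.70%, 2.73% and 1.74% of the counts of the pair in PINCH1 mutants. It made up 9.21%, 0% and 4.05% in PINCH2 mutants and 9.88%, 2.63% and 4.12% in controls. The 95% Wilson intervals reached from 0.886% to 5.70% over the PINCH1 mutant libraries and from 0% to 18.3% over the others, for counting error only. The shares overlapped between the groups. Over each group, Csrp2 had 36 of 1303 counts (2.76%) in PINCH1 mutants, 10 of 247 (4.05%) in PINCH2 mutants and 14 of 254 (5.51%) in controls. Most of each total is Zdhhc17, which was chosen for its level in PINCH1 mutants, so the shares are a description with no test.

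Within 1 Mb of the pair lay 11 entries, Zdhhc17 and Csrp2 included, of which 5 were tested, and 0 of the 4 besides Zdhhc17 passed in any comparison with edgeR, DESeq2 or limma-voom. An unadjusted edgeR p under 0.05 was found for 1 of them, Phlda1, between PINCH1 and PINCH2 mutants. On the Csrp2 side the nearest was E2f7, a cell cycle repressor gene, with 1 count in all 9 libraries together. Nav3, a neuron navigator gene beyond it, had 0 to 3 counts per library. On the Zdhhc17 side the nearest was Gm5428, with 0 or 3 counts in each library. Osbpl8, an oxysterol-binding protein gene, had 5, 3 and 1 counts in PINCH1 mutants, 0, 0 and 0 in PINCH2 mutants and 3, 7 and 1 in controls.

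Of the tested neighbours, Nap1l1, a histone chaperone gene, had a log2 fold change of -0.54 (SE 0.39, edgeR adjusted p = 0.867) between PINCH1 mutants and controls. Phlda1, a pleckstrin homology-like domain gene that lies over Gm28592, had 26, 7 and 16 counts in PINCH1 mutants, 3, 5 and 7 in PINCH2 mutants and 6, 10 and 15 in controls. It had a log2 fold change of 0.63 (SE 0.60, edgeR adjusted p = 0.879) against controls and of 1.63 (SE 0.64, edgeR adjusted p = 0.756) against PINCH2 mutants. Krr1 and Glipr1, which overlap each other, were at -0.43 (SE 0.72) and 0.18 (SE 0.18) against controls on the log2 scale.

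**Figure D3:**
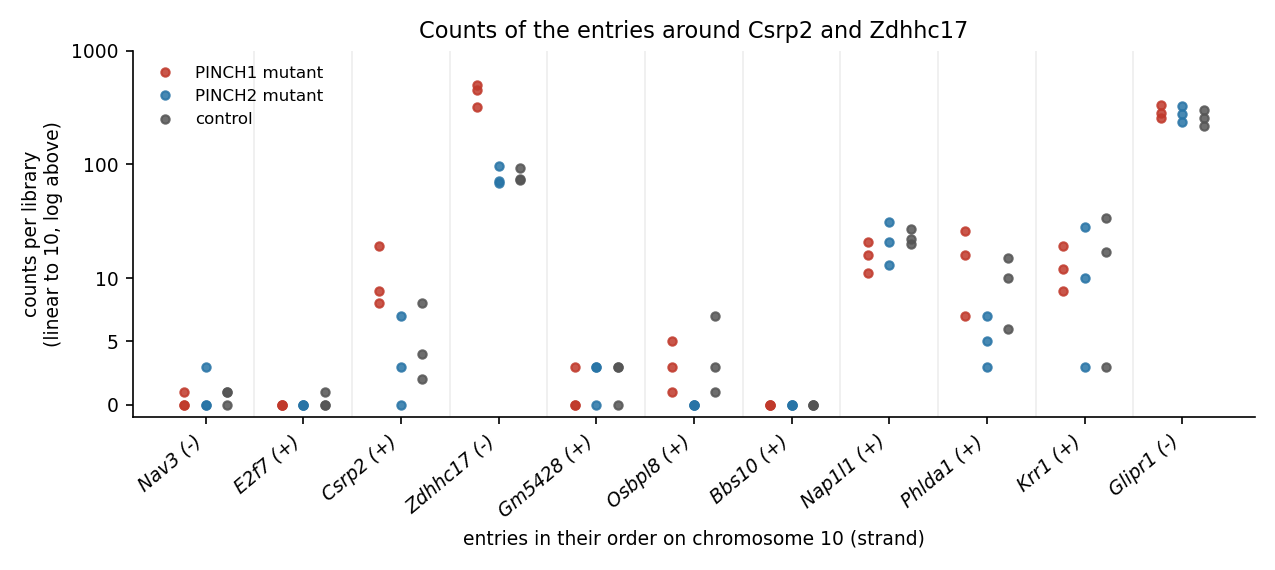
Counts in each library (points) of the 11 entries within 1 Mb of Csrp2 and Zdhhc17, in their order on chromosome 10 and with their strand, on an axis that is linear to 10 and logarithmic above. Zdhhc17 has 321 to 495 counts in PINCH1 mutants and 69 to 97 in the other groups, and the colours overlap for the tested neighbours Nap1l1, Krr1 and Glipr1. For Phlda1, PINCH1 mutants overlap with controls and meet PINCH2 mutants at 7 counts.

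Lims1, the gene of PINCH1, is on the same chromosome, 52.5 Mb from Csrp2. Leaving out Zdhhc17, which was chosen on these contrasts, chromosome 10 held 217 of 4737 tested entries. Between PINCH1 mutants and controls 1 of the 217 passed, the clone-named RP24-538B17.1, of 2 entries in all. The same entry passed between PINCH1 and PINCH2 mutants, of 3 entries in all, and 0 of the 217 passed between PINCH2 mutants and controls. An unadjusted p under 0.05 was found for 6.45% of the chromosome 10 entries and 6.35% of all entries between PINCH1 mutants and controls. Between PINCH2 mutants and controls the percentages were 5.07% and 4.26%, and between PINCH1 and PINCH2 mutants 8.76% and 6.33%.

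Facing 3′ ends are a common arrangement. There were 1835 pairs of entries on opposite strands whose ends faced each other with no more than 5000 bases between, and in 191 of them both entries were tested. Besides Zdhhc17, 994 tested entries lay in such pairs, and their median log2 fold change between PINCH1 mutants and controls was -0.07. The highest of them was Golm1 at 1.95 (SE 0.82) and the lowest Tor3a at -3.45 (SE 0.97). Camk4, at -1.66 (SE 0.30), was the 1 entry of the 994 past the threshold, or 0.101%. Of all 4737 tested entries besides Zdhhc17, 2 were past it, Camk4 included.

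The same pairing of a DHHC gene with a CSRP gene occurs a second time in the genome. On chromosome 7 the 3′ end of Zdhhc13 faces that of Csrp3 across 2957 bases, with E2f8 and Nav2 further along, as E2f7 and Nav3 are beside Csrp2. Zdhhc13 had 1 count in PINCH1 mutant replicate 1 and 1 in control replicate 3, and 0 in the other libraries. E2f8 had 0 or 1 counts in the mutants and at most 3 in controls. Of the 17 entries within 1 Mb of Csrp3, 0 were tested, so the chromosome 7 pair was not measurable in these nerves. Csrp1 on chromosome 1 has Nav1 and Phlda3 beside it and no DHHC gene within 1 Mb, and of the 4 tested entries around it, Arl8a, Gpr37l1, Nav1 and Gm4793, 0 passed in any comparison with edgeR, DESeq2 or limma-voom and 0 had an unadjusted edgeR p under 0.05.

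The CSRP genes are alike enough that shared reads had to be considered. The stretch of 120 coding bases most alike in the 3 genes lies around the second LIM domain and is printed, with capitals for the bases identical in all 3. It covers codons 136 to 175 in Csrp2-201 (chr10:110937861-110939230, plus strand) and Csrp1-201 (chr1:135746844-135751063, plus strand) and codons 137 to 176 in Csrp3-201 (chr7:48830687-48833744, minus strand), in each case from exon 4 to exon 6 with the introns between.
Csrp2: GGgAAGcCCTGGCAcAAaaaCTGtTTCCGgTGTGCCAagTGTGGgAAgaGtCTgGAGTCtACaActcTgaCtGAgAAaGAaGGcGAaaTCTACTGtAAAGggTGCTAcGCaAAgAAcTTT
Csrp1: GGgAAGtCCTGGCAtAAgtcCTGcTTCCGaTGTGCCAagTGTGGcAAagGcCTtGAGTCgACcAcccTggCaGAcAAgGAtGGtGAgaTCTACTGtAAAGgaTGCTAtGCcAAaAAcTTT
Csrp3: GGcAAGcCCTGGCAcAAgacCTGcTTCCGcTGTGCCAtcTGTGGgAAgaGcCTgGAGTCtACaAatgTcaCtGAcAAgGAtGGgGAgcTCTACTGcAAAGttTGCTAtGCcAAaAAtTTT
Of the 120 bases, 84 were identical in all 3 genes. Over the whole coding sequence Csrp2 was 73.7% identical to Csrp1 and 66.5% identical to Csrp3, and Csrp1 was 68.9% identical to Csrp3. The longest identical run between any 2 of the transcripts was 15 bases, so no longer read could match 2 of them in the same direction without a mismatch.

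Csrp1 (ENSMUSG00000026421, chr1:135720061-135752232, plus strand) was the CSRP gene with the most counts. It had 13, 26 and 32 counts in PINCH1 mutants, 34, 13 and 28 in PINCH2 mutants and 28, 43 and 42 in controls. The controls were the higher libraries, but each mutant group reached into their range. The means were 22.7 ± 9.49 CPM in PINCH1 mutants, 25.0 ± 12.8 CPM in PINCH2 mutants and 35.7 ± 6.03 CPM in controls (SD, n = 3 each). The log2 fold change was -0.66 (SE 0.41, edgeR adjusted p = 0.815) between PINCH1 mutants and controls. It was -0.53 (SE 0.41, edgeR adjusted p = 0.999) between PINCH2 mutants and controls and -0.13 (SE 0.42, edgeR adjusted p = 0.993) between PINCH1 and PINCH2 mutants. Exact two-sided permutation tests of Csrp1 gave p = 0.2 for each mutant against controls and p = 0.8 between the mutants.

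Csrp3 (ENSMUSG00000030470, chr7:48830398-48848051, minus strand), the muscle member, had 0 counts in all 9 libraries. This allows up to 2.49 to 3.13 CPM per library. Crip3, a related gene for a protein of the same fold, was also at 0 in all 9 libraries. Crip2, the other tested member of this family of 6 genes, was at -0.17 (SE 0.47, edgeR adjusted p = 0.976) between PINCH1 mutants and controls. The summed level of the 6 genes was 39.8 to 62.6 CPM in PINCH1 mutants, 31.5 to 56.5 CPM in PINCH2 mutants and 53.6 to 75.1 CPM in controls, and these ranges overlapped. The 10 markers of smooth muscle and pericytes, cells in which CSRP1 and CSRP2 are known, summed to 103 to 120 CPM in PINCH1 mutants, 103 to 141 CPM in PINCH2 mutants and 106 to 107 CPM in controls. Tagln, which lies over Gm48529 and Pcsk7, made up most of these sums, with 244 counts in PINCH1 mutants, 259 in PINCH2 mutants and 238 in controls. Rgs5 followed with 152 counts in all 9 libraries together, while Acta2, Myh11 and Cnn1 had 20, 30 and 15. The sums therefore say little on smooth muscle content.

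Levels of different genes are compared per kb of exon. On that scale Zdhhc17 stood at 56.4 ± 6.70 CPM per kb in PINCH1 mutants, 10.7 ± 0.743 in PINCH2 mutants and 10.8 ± 0.967 in controls (SD, n = 3 each). Csrp1 came to 11.6 ± 4.85 CPM per kb in PINCH1 mutants, 12.8 ± 6.57 in PINCH2 mutants and 18.3 ± 3.08 in controls. Csrp2 came to 5.25 ± 2.50 CPM per kb in PINCH1 mutants, 1.60 ± 1.72 in PINCH2 mutants and 2.11 ± 1.52 in controls. In controls the order of the means was therefore Csrp1, Zdhhc17, Csrp2 and Csrp3, and in PINCH1 mutants Zdhhc17 came first. With the strand setting not given, this is an order of entries by their counts and not of mRNA levels.

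The DHHC family gives the company of Zdhhc17. Of 24 family genes 6 were tested and 4 had 0 counts in every library. Apart from Zdhhc17, 0 members passed in any comparison with edgeR, DESeq2 or limma-voom, and 0 had an unadjusted edgeR p under 0.05. In controls the highest level per kb was that of Zdhhc5, a plasma membrane palmitoyltransferase gene, at 46.6 ± 6.69 CPM per kb. Zdhhc2 followed at 14.7 ± 2.99, Zdhhc16, the gene of an endoplasmic reticulum enzyme, at 11.7 ± 3.89, and Zdhhc17 at 10.8 ± 0.967 CPM per kb (SD, n = 3 each). Those from Zdhhc2 to Zdhhc17 did not differ beyond their spread. Zdhhc8 came next at 2.98 CPM per kb. In PINCH1 mutants Zdhhc17 ranked 1st at 56.4 ± 6.70 and Zdhhc5 2nd at 52.4 ± 10.1 CPM per kb, which lay within their spread, and in PINCH2 mutants Zdhhc17 was 4th as in controls.

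The entries of Zdhhc5, Zdhhc2 and Zdhhc16 lie over Med19, Cnot7 and Mms19 on the opposite strand, so their counts cannot be assigned to the DHHC genes alone. Zdhhc5 had 297, 275 and 252 counts in PINCH1 mutants, 195, 370 and 327 in PINCH2 mutants and 253, 262 and 220 in controls. Its log2 fold change between PINCH1 mutants and controls was 0.17 (SE 0.20, edgeR adjusted p = 0.931). Zdhhc8, which has no such overlap, was at 0.39 (SE 0.43, edgeR adjusted p = 0.914). The median log2 fold change of the 6 tested members was 0.27 between PINCH1 mutants and controls, with 4 above 0 and 2 below, against -0.02 for all tested entries.

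**Figure D4:**
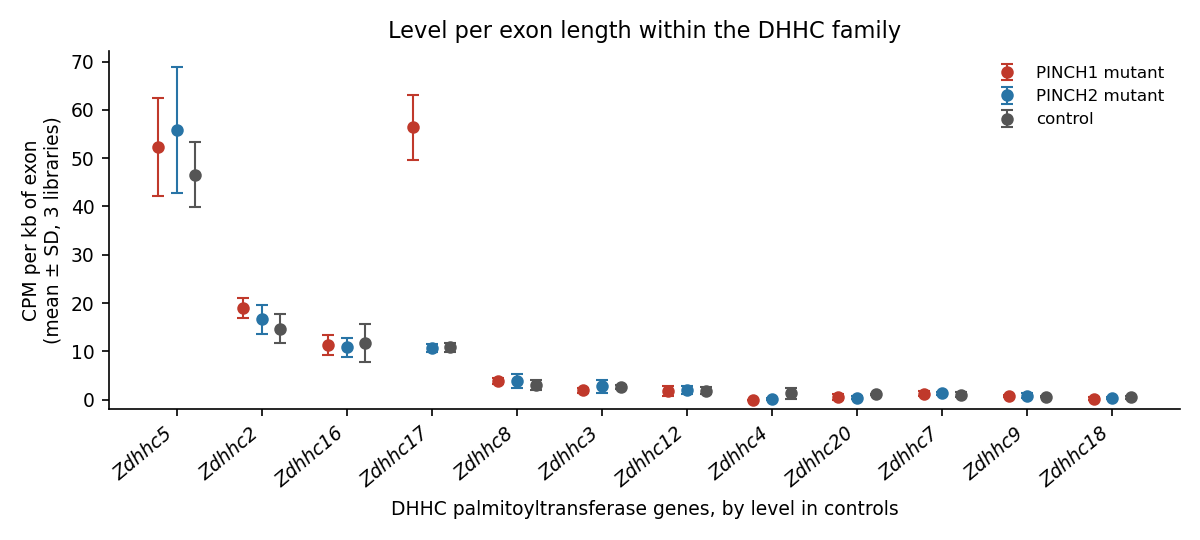
Level per kb of exon (mean ± SD of 3 libraries) of the 12 DHHC genes highest in controls, in the order of their control level. Zdhhc17 stands at 56.4 CPM per kb in PINCH1 mutants, level with Zdhhc5, and at 10.7 and 10.8 CPM per kb in PINCH2 mutants and controls, while the error bars of the 3 groups overlap for Zdhhc5, Zdhhc2 and Zdhhc16.

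Enzymes that remove palmitate and the substrates of ZDHHC17 were also examined. Of 8 genes for palmitate-removing enzymes 2 were tested and 0 passed in any comparison with edgeR. Ppt1, a lysosomal thioesterase gene that lies over Cap1, was at 0.10 (SE 0.21) and Ppt2 at -0.06 (SE 0.21) between PINCH1 mutants and controls on the log2 scale. Of 14 genes for proteins known to bind ZDHHC17 or to be palmitoylated by it, 4 were tested and 3 had 0 counts in every library. Between PINCH1 mutants and controls all 4 tested were below 0 and 0 passed. Their median was -0.18, against -0.02 for all tested entries and -0.17 for those without an exon overlap with the opposite strand. Map3k12, a gene of an axonal kinase that lies over Pcbp2 and Gm10337, was at -0.13 (SE 0.16), and Mtap6, a microtubule-stabilising protein gene, at -0.11 (SE 0.33). In PINCH2 mutants against controls 2 were above 0 and 2 below. Their median was -0.09, against 0.00 for all tested entries and -0.12 for those without such an overlap. For both lists, DESeq2 and limma-voom also called 0 genes, and 0 had an unadjusted edgeR p under 0.05.

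The LIM-domain adaptors other than the cysteine-rich family comprised 41 genes, of which 5 were tested and 0 passed in any comparison with edgeR. Pxn, the gene of the focal adhesion protein paxillin, had 282, 74 and 230 counts in PINCH1 mutants, 72, 62 and 79 in PINCH2 mutants and 55, 93 and 145 in controls. Replicates 1 and 3 of the PINCH1 mutants were the highest of all libraries and replicate 2 was among the lower ones. The log2 fold change of Pxn was 0.96 (SE 0.38, edgeR adjusted p = 0.656) between PINCH1 mutants and controls and 1.37 (SE 0.38, edgeR adjusted p = 0.402) between PINCH1 and PINCH2 mutants. DESeq2 called Pxn between PINCH1 and PINCH2 mutants (adjusted p = 0.0414), while limma-voom did not (adjusted p = 0.811). Prickle3, over Plp2, was at 0.11 (SE 0.25) against controls. The median of the 5 was -0.08 in PINCH1 mutants and -0.41 in PINCH2 mutants, both against controls. Medians of all tested entries were -0.02 and 0.00, and of those without an exon overlap with the opposite strand -0.17 and -0.12.

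CSRP proteins are known to act with serum response factor at smooth muscle and actin genes. Of 21 genes of this group 7 were tested, with 2 above 0 and 5 below and a median log2 fold change of -0.19 between PINCH1 mutants and controls. In PINCH2 mutants against controls 3 were above and 4 below, with a median of -0.24, and 0 passed in either comparison with edgeR. All tested entries had medians of -0.02 in PINCH1 mutants and 0.00 in PINCH2 mutants against controls. Entries without an exon overlap with the opposite strand had medians of -0.17 and -0.12. Vcl, the vinculin gene, which lies over Ap3m1, was at 0.52 (SE 0.31) and Tagln, a smooth muscle actin-binding protein gene over Gm48529 and Pcsk7, at 0.03 (SE 0.25) in PINCH1 mutants against controls. Of 16 genes of the TGF-beta pathway 6 were tested, with a median of -0.54 in PINCH1 mutants (2 above 0 and 4 below) and -0.53 in PINCH2 mutants (0 above and 6 below), and 0 passed. In each of these lists DESeq2 and limma-voom called 0 genes, and 1 gene had an unadjusted edgeR p under 0.05 between PINCH1 mutants and controls, Cnn2 among the actin genes and Tgfbr3 in the TGF-beta pathway. Tgfbr3, a co-receptor gene, was at -1.19 (SE 0.43, edgeR adjusted p = 0.599) and Tgfbr2 at 0.01 (SE 0.38, edgeR adjusted p = 0.996) in PINCH1 mutants against controls.

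The entries whose levels over the 9 libraries were most like those of Zdhhc17, by Pearson correlation of log2(CPM + 2), were B630019A10Rik (0.951), Gm10706 (0.943) and Gm16153 (0.931). These values describe a contrast between the PINCH1 mutant libraries and the rest, the same that chose Zdhhc17, and they carry no p. All 3 lie over another gene, B630019A10Rik over BC106179, Gm10706 over Piwil4 and Gm16153 over Rmnd1. B630019A10Rik had 172, 129 and 160 counts in PINCH1 mutants, 71, 121 and 72 in PINCH2 mutants and 82, 89 and 86 in controls. Gm10706 had 25, 11 and 24 counts in PINCH1 mutants, 2, 1 and 0 in PINCH2 mutants and 3, 0 and 0 in controls. Gm16153, on chromosome 10 as well, had 168, 134 and 181 counts in PINCH1 mutants, 87, 121 and 69 in PINCH2 mutants and 96, 99 and 98 in controls. In each of the 3 the PINCH1 mutant libraries lay above all others, which the choice by likeness to Zdhhc17 favours, so nothing is read from it.

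For Csrp2 the most similar entries were Cttn (0.853), the gene of the actin-binding protein cortactin, Atxn7l3 (0.842) and Mrpl43 over Twnk (0.841). Zdhhc17 came 92nd, at 0.651. With 0 to 19 Csrp2 counts per library these values rest on very few reads.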

How the data were processed

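TruSeq libraries of total RNA from pooled sciatic nerves were sequenced, per the labels' protocols. Per the submitters' processing notes, Trim Galore 0.4.2, cutadapt 1.9.1, HISAT2 2.0.5 and the build GRCm38 were used. Counting tool, annotation release and strand setting were not given in the sources used here. As deposited, the table holds the authors' whole-number counts for 25965 entries, unscaled, and all its sample columns were used. Odd values made up 83.6% of the values from 1 to 4 and 50.1% of those over 50, so counting intervals at low counts are approximate.

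All 9 libraries were fitted in 1 edgeR 4.0.16 model (R 4.3.3; TMM scaling, filterByExpr, robust quasi-likelihood F-test), with Benjamini-Hochberg adjustment over the 4738 tested entries and a threshold of 0.05. The SE was taken as |log2 fold change| over the root of F. Sums over a list of genes or entries were CPM of the library totals without TMM, while levels of single genes were TMM-scaled. P-values measure the spread between pools. Csrp2 did not pass the filter and was read from the fit without it, a departure from the plan made after seeing the data. Positions, exon lengths and transcript sequences came from GENCODE M21, where 96.4% of identifiers were found. Coding sequences were aligned with Biopython 1.88.

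The members and gene lists were chosen with earlier results of these data known. Named genes were the members, for each list up to 4 genes past the threshold or else the 2 with the highest mean CPM, the nearest entries at the locus, the 3 most similar entries for Zdhhc17 and for Csrp2, and Lims1. Other names were chosen after their values were seen. Alternatives were other scalings, filters and tools (DESeq2 1.42.0, limma-voom with limma 3.58.1), the 6 libraries compared, a replicate block, a threshold of 0.01 and each library left out.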

Additional observations from a re-analysis of the deposited data

How the results depend on the processing

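Over the 18 alternatives the log2 fold change of Zdhhc17 ran from 2.28 to 2.45 between PINCH1 mutants and controls. It ran from 2.30 to 2.48 between PINCH1 and PINCH2 mutants and from -0.09 to 0.05 between PINCH2 mutants and controls. The stricter threshold is counted among the 18 but cannot change a fold change. Leaving out a library of the group not compared keeps all libraries of a comparison in place. Zdhhc17 was chosen for its level in PINCH1 mutants in these libraries, so its ranges are a description, with no test. Csrp1 and Csrp2 were past the threshold in 0 alternatives. Csrp2 changed direction between PINCH2 mutants and controls without PINCH2 mutant replicate 2 (0.20) and without control replicate 1 (0.31), with a range of -1.60 to 0.31 over left-out libraries. Over left-out libraries it ran from 0.86 to 2.04 between PINCH1 mutants and controls and from 1.11 to 2.91 between PINCH1 and PINCH2 mutants. Csrp1 changed direction between PINCH1 and PINCH2 mutants without PINCH1 mutant replicate 1 (0.19) and without PINCH2 mutant replicate 1 (0.23), with a range of -0.49 to 0.23. The alternatives for Csrp2 other than the fit without a filter were added after seeing the data. Csrp3, with 0 counts, could not be fitted.

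The number of entries past the threshold varied between the alternatives. Between PINCH1 mutants and controls it was 3 as reported, 15 with no filter, 16 with at least 1 CPM in 3 libraries, 7 with DESeq2, 1 with limma-voom, 1 when the fit held the 6 libraries compared, 1 with a threshold of 0.01 and 1 to 9 with a library left out. Between PINCH2 mutants and controls it was 1 as reported, 0 when the fit held the 6 libraries compared, 0 with a threshold of 0.01 and 0 to 1 with a library left out. Between PINCH1 and PINCH2 mutants it was 4 as reported, 20 with no filter, 27 with at least 1 CPM in 3 libraries, 7 with DESeq2, 8 when the fit held the 6 libraries compared and 3 to 9 with a library left out. The cause was not tested.

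Whether replicate numbers pair the samples could not be settled. Deviations of same-numbered libraries correlated from -0.11 to 0.25, above 0.1 in 3 of 9 pairs. Those of different-numbered libraries ran from -0.20 to 0.14. Deviations from a mean of 3 libraries are tied to each other, so this check cannot exclude pairing. With the replicate number as a block, Zdhhc17 was at 2.38 between PINCH1 mutants and controls, at -0.01 between PINCH2 mutants and controls and at 2.39 between the mutants, and 5, 0 and 6 entries passed in those comparisons. Csrp2 had 0 to 19 counts in a library and Csrp3 had 0.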
